A study of Drosophila melanogaster with 6 samples.

Results

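Glutathione S-transferases were examined as a gene family in intestinal progenitor cells of Drosophila melanogaster. The members were all genes of the deposited count table whose symbol is Gst followed by a class letter (D, E, O, S, T or Z) and a number. This gave 31 of the 13189 genes with at least 1 count, namely 9 of the Delta class, 12 Epsilon, 3 Omega, 1 Sigma, 4 Theta and 2 Zeta. Transcripts were counted in 3 control libraries, whose genotype is given as wildtype, and in 3 libraries whose genotype is given as Pex5-depleted. Pex5 is the receptor that carries enzymes into peroxisomes. Each replicate was a pool of 200 dissected guts, from which about 40000 GFP-positive cells were sorted after 1 hour with elastase at 27 °C. The sort gate was set on flies carrying GFP under escargot (esg), a gene active in the stem cells and their undifferentiated daughters, and on w1118 flies without GFP. The labels give neither the driver nor the method of the depletion, nor the age or sex of the flies, and both groups went through the same digestion and sort. The labels call the replicates biological.

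Cytosolic glutathione S-transferases join the tripeptide glutathione to reactive, electrophilic compounds, which makes these more soluble and marks them for export. Delta and Epsilon are the expanded insect classes and act mainly on foreign compounds and on products of lipid oxidation, whereas Zeta enzymes serve tyrosine breakdown and Omega enzymes mainly reduce substrates with thiols. Transcription of many Delta and Epsilon genes is raised by CncC, the fly counterpart of Nrf2, which its partner Keap1 holds in check. A reporter of GstD1 is widely used in the fly gut to follow oxidative stress and CncC activity, and CncC is known to restrain the division of intestinal stem cells.

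The libraries held 2573882 to 4793433 unique molecular identifiers (UMIs), each standing for 1 captured transcript molecule, and levels are given as CPM, the usual depth-scaled count, after scaling for composition. The Pex5 transcript itself had 8, 6 and 14 UMIs among controls and 2, 21 and 41 in the second group (log2 fold change 1.24, SE 0.87, edgeR adjusted p = 0.607), which does not run in the direction of the label. The second group is therefore called by its label. The sort marker esg stood at 42.7 ± 13.04 against 55.6 ± 9.65 CPM (SD, n = 3 each). Each of 16 progenitor markers had counts, though wor had at most 3 UMIs in any library, and 14 were tested. Fitted log2 fold changes were above 0 for 8 of the 14 and below 0 for 6, and 0 passed with edgeR. At an unadjusted p under 0.05, 2 were higher (6.54% of all tested genes) and 0 lower (6.67%). These were mira, at 14.3 against 45.6 CPM, and E(spl)mbeta-HLH, at 237 against 386 CPM, and DESeq2 called both higher. Of the haemocyte, fat body and visceral muscle markers 1 in each list had enough counts to be tested. The haemocyte gene Hml had at most 1 UMI in any library and the muscle myosin gene Mhc at most 4, whereas the muscle-listed gene Msp300 had 28 to 155 and the haemocyte-listed gene crq 31 to 79. Yolk protein transcripts (Yp1, Yp2 and Yp3) had 65, 37 and 135 UMIs in Pex5-depleted replicate 2 and at most 7 in any other library. The edgeR fit was also made without that library.

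No member of the family passed the edgeR test between the groups. All Gst transcripts together took 1.24%, 1.00% and 1.09% of the UMIs in the 3 controls in order, and 1.03%, 1.07% and 0.845% among libraries labelled Pex5-depleted. After scaling, the summed level was 10879 ± 932 CPM among controls and 10027 ± 657 CPM in the second group (SD, n = 3 each), and the groups overlapped. The most abundant member, GstD1, was within 1.06-fold between the groups. The groups separated for 6 of 27 tested members (22.2%), beside 19.2% of all tested genes. They were GstD2, GstO3, GstT1 and GstE9, each lower in every library labelled Pex5-depleted, and GstD3 and GstZ1, each higher in every one.

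Of the 31 members 27 had enough counts to be tested, and 0 of them passed edgeR's quasi-likelihood test at a Benjamini-Hochberg adjusted p under 0.05, against 1.65% of the 5639 genes tested (0.833% higher and 0.816% lower). At an unadjusted p under 0.05 there were 6 of 27 members (22.2%), 2 higher and 4 lower, where all tested genes gave 13.2% (6.54% higher and 6.67% lower). The same 6 members were those without overlap between the groups (22.2%), beside 19.2% of all tested genes (9.74% higher and 9.42% lower). Fitted fold changes were below 0 for 18 of 27 members (66.7%), beside 47.3% of all tested genes. The median log2 fold change was -0.24 for the members and 0.03 for all tested genes. DESeq2, which gave 21 of the 27 members an adjusted p, called GstO3 and GstT1, both lower (3.37% of its genes with an adjusted p were called lower), and limma-voom called 0 (1.49% of its genes).

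Precision differed widely with abundance. The 95% interval of the log2 fold change was narrowest for GstD1, from -0.20 to 0.35, and widest for GstD4, from -0.96 to 2.86. For 11 of the 27 members the interval lay within a 2-fold change in either direction. For the remaining members a 2-fold change in at least one direction lay within the interval.

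**Figure D1:**
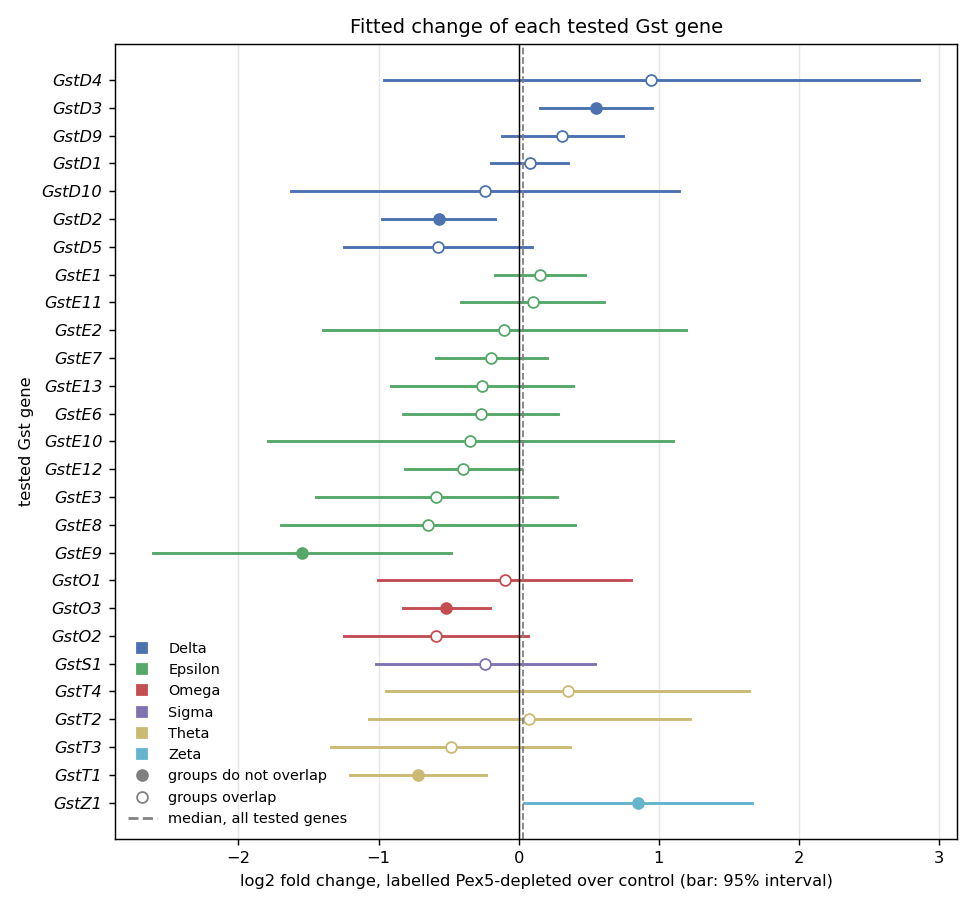
Fitted log2 fold change (x axis, libraries labelled Pex5-depleted over control) of the 27 tested Gst genes, grouped by class, with 95% intervals as bars. Filled points mark the 6 genes whose groups do not overlap, and the dashed line is the median of all 5639 tested genes, 0.03. GstD1 has the narrowest interval, and most points of the Epsilon and Omega classes lie left of 0.

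Levels within the family spanned a wide range. Because the kit tags each molecule once near its 3′ end, CPM was compared between genes as counted, and dividing by transcript length left the same 6 genes first in the same order. GstD1 held 39.0% to 51.2% of all Gst transcripts, and its 4 successors in order were GstD2, GstE1, GstO3 and GstE12. These 5 genes together held 88.2% to 90.3% in each library. GstD1 stood at rank 53 of the 13189 genes by mean CPM, GstD2 at rank 101 and GstE1 at rank 117. Of the tested members 8 averaged over 100 CPM, 13 lay between 10 and 100 CPM, and 6 lay under 10 CPM. Neighbours in this order were often not separable: GstD3, GstD9 and GstE7 had control means of 164, 165 and 179 CPM with SDs of 16.4, 32.1 and 26.9 CPM.

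**Figure D2:**
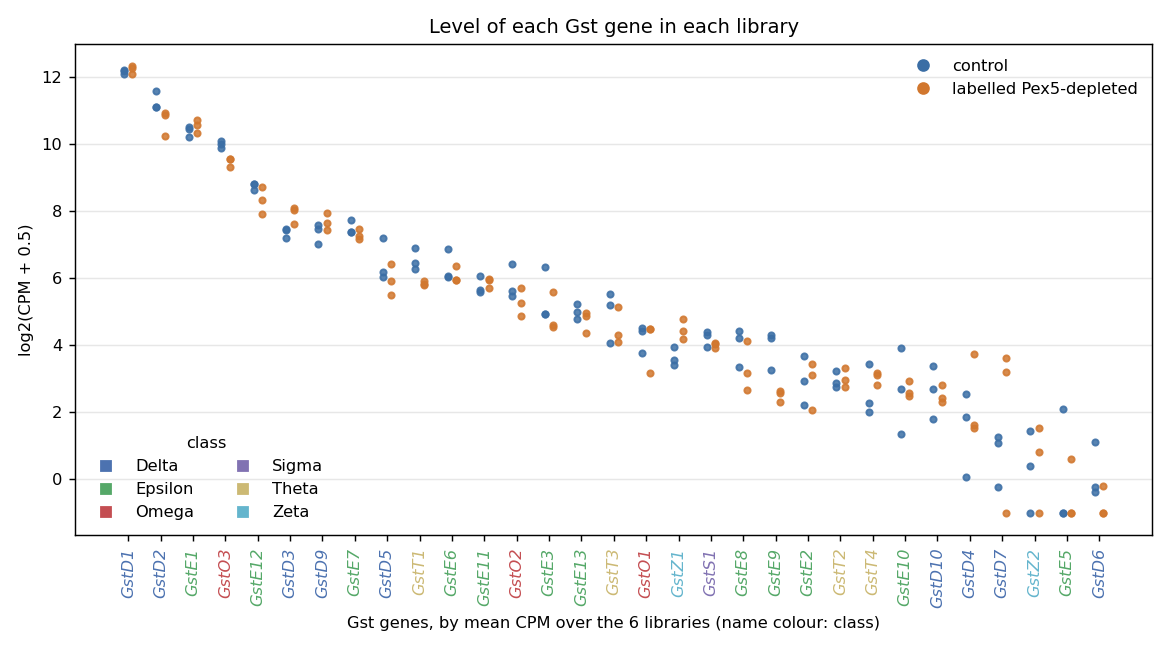
Level of each of the 31 Gst genes, as log2(CPM + 0.5), in each control library (blue) and each library labelled Pex5-depleted (orange), ordered by mean CPM. Name colours give the class. GstD1 is highest in every library, and the 4 genes at the right end are those too scarce to test.

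The Delta genes lie side by side on chromosome 3R, with the 9 members within 14.5 kb (12364776 to 12379255, dm6), and they held 66.4% to 69.7% of the family's transcripts. GstD10, GstD9 and GstD1 are on the minus strand and the other 6 on the plus strand, and the plus-strand genes each have a single exon. GstD1 (FBgn0001149, 12367817 to 12369268) encodes an enzyme known for its activity on DDT. It stood at 4660.0, 4571 and 4327 CPM for control replicates 1 to 3 and at 4308, 5062 and 4938 CPM among libraries labelled Pex5-depleted. The groups overlapped, with a log2 fold change of 0.08 (SE 0.13, edgeR adjusted p = 0.859). GstD1 also varied least between control replicates of all members, with a coefficient of variation of 3.82%.

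GstD2 (FBgn0010038, 12371971 to 12372704) is the closest plus-strand neighbour of GstD1. It stood at 3041, 2187 and 2171 CPM among controls and at 1842, 1937 and 1198 CPM among libraries labelled Pex5-depleted. Every library of the second group was below every control, with a fitted log2 fold change of -0.57 (SE 0.19, 95% interval -0.98 to -0.17, edgeR adjusted p = 0.189). Without a count filter the adjusted p was 0.00199 (0.826% of all genes were called lower there), and in the fits without 1 library it lay between 0.140 and 0.487. Within a library, where scaling cancels, there were 0.652, 0.478 and 0.502 GstD2 transcripts per GstD1 transcript among controls. The ratio was 0.428, 0.383 and 0.243 in the second group, without overlap. It rests on the same GstD2 counts and is not an independent measure.

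GstD3 (FBgn0010039, 12373068 to 12373813) lies next to GstD2 and differed in the opposite direction. Its coding sequence of 597 bases is the shortest of the Delta members, which otherwise have 627 to 672. It stood at 174, 145 and 173 CPM among controls and at 272, 193 and 258 CPM among libraries labelled Pex5-depleted. All 3 values of the second group were above the controls, with a log2 fold change of 0.55 (SE 0.19, edgeR adjusted p = 0.199). Relative to GstD2, GstD3 had 0.0573, 0.0665 and 0.0797 transcripts per transcript among controls and 0.148, 0.0997 and 0.215 in the second group. Because GstD3 was above and GstD2 below every control there, this ratio had to separate the groups and is no further evidence. The ratio relative to GstD1 overlapped, at 0.0318 to 0.0400 among controls and 0.0381 to 0.0632 in the second group.

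The remaining Delta members overlapped between groups. GstD9 stood at 190, 176 and 129 CPM among controls and at 199, 242 and 172 CPM in the second group (log2 fold change 0.31, SE 0.20). GstD5 stood at 145, 64.8 and 71.1 CPM against 85.3, 58.9 and 44.6 CPM, where control replicate 1 was again the highest control. Without control replicate 1 its log2 fold change moved from -0.58 to -0.12. GstD10 and GstD4 were under 10 CPM on average in both groups. GstD4 had 2, 9 and 20 UMIs among controls and 35, 12 and 7 in the second group, and its log2 fold change of 0.95 was -0.28 without Pex5-depleted replicate 1. Reads that mapped to several loci were dropped by the authors, so counts of Delta and Epsilon genes with similar neighbours are uncertain to an unknown degree.

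**Figure D3:**
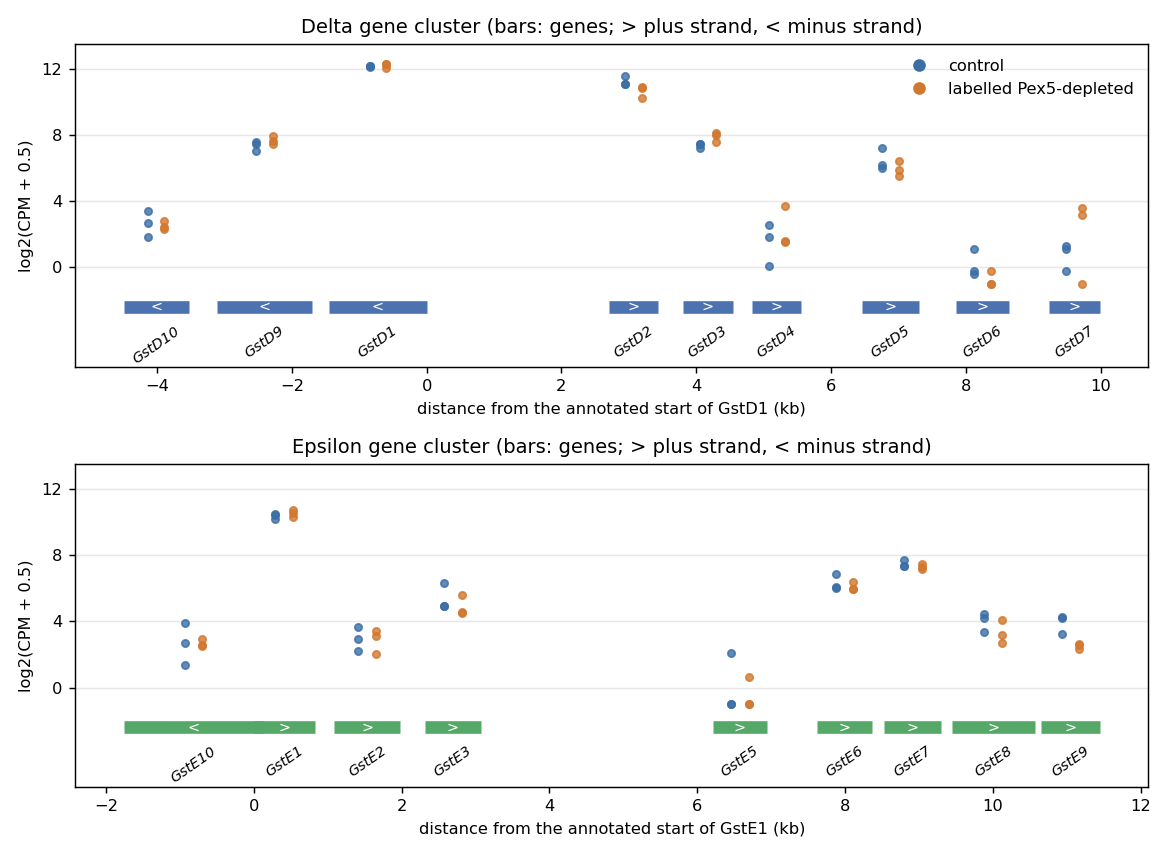
Level of each gene, as log2(CPM + 0.5), along the Delta cluster (upper panel) and the Epsilon cluster (lower panel), against distance in kb from the annotated start of GstD1 and of GstE1. Points are libraries (blue control, orange labelled Pex5-depleted) and bars are genes with their strand. Abundant and scarce genes stand next to each other in both clusters, and GstD2 and its neighbour GstD3 are displaced in opposite directions.

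Of the 12 Epsilon genes 9 lie within 13.2 kb of chromosome 2R (18396638 to 18409835, dm6), and GstE11, GstE12 and GstE13 lie apart on the same arm. The class held 19.5% to 21.9% of the family's transcripts. GstE1 (FBgn0034335, 18398393 to 18399223), which held 58.3% to 71.2% of the Epsilon transcripts in each library, stood at 1446, 1174 and 1381 CPM among controls and at 1492, 1670.1 and 1285 CPM among libraries labelled Pex5-depleted. The groups overlapped, with a log2 fold change of 0.15 (SE 0.15, edgeR adjusted p = 0.723). GstE12 (FBgn0027590, 24766718 to 24768172) stood at 442, 448 and 392 CPM against 240, 318 and 416 CPM. Pex5-depleted replicate 3 lay within the control range and the other 2 below it (log2 fold change -0.40, SE 0.19, edgeR adjusted p = 0.405).

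GstE9 (FBgn0063491, 18409048 to 18409835), the last gene of the Epsilon cluster, had the fitted fold change farthest from 0 of the tested members. It had 70, 52 and 34 UMIs among controls and 15, 27 and 13 among libraries labelled Pex5-depleted, or 19.1, 17.8 and 9.12 CPM against 5.47, 5.70 and 4.46 CPM. Every library of the second group was below every control, with a log2 fold change of -1.55 (SE 0.50, 95% interval -2.61 to -0.48, edgeR adjusted p = 0.169). The 3′ end of GstE9 overlaps by 40 bases the gene imd on the opposite strand, and whether counting used strand is not given in the sources used here. The imd transcript stood at 4.64, 10.3 and 6.71 CPM among controls and at 2.92, 6.76 and 10.3 CPM in the second group, with a log2 fold change of -0.10 (SE 0.63).

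The other Epsilon genes overlapped between groups. GstE7 and GstE6 averaged 179 and 81.7 CPM among controls against 157 and 67.6 CPM. GstE3 had 294 UMIs in control replicate 1 and 88 and 112 in the other controls, and its log2 fold change of -0.59 was 0.05 without that library. GstE8 stood at 18.0, 20.9 and 9.66 CPM against 16.8, 8.45 and 5.84 CPM. GstE10, which overlaps GstE1 by 127 bases on the opposite strand, and GstE2 were under 10 CPM on average in both groups. Of the 11 tested Epsilon genes 9 had a fitted log2 fold change below 0, beside 47.3% of all tested genes. Their median was -0.27, whereas the log2 ratio of the class's summed level was -0.02. GstE2, GstE3, GstE6 and GstE10 were above 0 in some fit without 1 library.

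The 3 Omega genes lie within 6 kb on chromosome 3L, next to se, an Omega gene that the naming rule leaves out and that encodes an enzyme of red eye pigment synthesis. GstO3 (FBgn0035904, 8518885 to 8520295) held 92.8% of the Omega transcripts on average. It stood at 1073, 942 and 1014 CPM among controls and at 633, 743 and 742 CPM among libraries labelled Pex5-depleted. The groups did not overlap, and the difference of their means exceeded the SDs of 65.6 and 63.1 CPM. GstO3 had the lowest p-value of the tested members, with a log2 fold change of -0.52 (SE 0.15, 95% interval -0.83 to -0.20) and an edgeR adjusted p of 0.107. Its adjusted p was 0.00944 with DESeq2, 0.0396 without a composition factor (1.05% of genes called lower) and 0.0274 without a count filter. In the edgeR fits without 1 library its log2 fold change lay between -0.59 and -0.44 and its adjusted p between 0.123 and 0.315. Per GstD1 transcript there were 0.230, 0.206 and 0.234 GstO3 transcripts among controls and 0.147, 0.147 and 0.150 in the second group. This ratio reuses the same GstO3 counts and is not an independent measure.

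GstO2 and GstO1 overlapped between groups, at 48.0, 43.5 and 85.6 against 28.4, 37.8 and 51.5 CPM for GstO2 and at 22.4, 13.02 and 20.7 against 8.39, 21.7 and 21.97 CPM for GstO1. The 3′ ends of GstO2 and se overlap by 61 bases on opposite strands, so their counts may not be separable. The se transcript had 12, 20 and 15 UMIs among controls and 3, 11 and 4 in the second group (log2 fold change -1.50, SE 0.79). All 4 Omega genes, with se included, thus had fitted log2 fold changes below 0, beside 47.3% of all tested genes. Of the 4, 0 passed the edgeR test, and GstO1 ranged from -0.32 to 0.22 in the fits without 1 library.

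Among Theta genes, GstT1 (FBgn0050000, chromosome 2R, 9605988 to 9607184) was the most abundant and had the second lowest p-value in the family. It stood at 76.1, 85.7 and 118 CPM among controls and at 55.1, 55.7 and 59.0 CPM among libraries labelled Pex5-depleted. The second group lay wholly below the controls and was the tighter one, with SDs of 2.13 against 21.8 CPM. Its fitted log2 fold change was -0.72 (SE 0.23, 95% interval -1.21 to -0.23, adjusted p = 0.163 with edgeR and 0.0482 with DESeq2), and between -0.85 and -0.52 in the fits without 1 library. Its neighbour GstT2 stood at 7.28 ± 1.40 against 7.66 ± 1.69 CPM and GstT3, on chromosome X, at 32.5 ± 15.0 against 23.4 ± 9.80 CPM (SD, n = 3 each). GstT4, also on chromosome X, had a log2 fold change of 0.35 (SE 0.61).

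GstZ1 (FBgn0037696, chromosome 3R, 9455517 to 9456546) belongs to the class that includes maleylacetoacetate isomerase, an enzyme of tyrosine breakdown. It stood at 10.1, 14.7 and 11.3 CPM among controls and at 26.6, 20.9 and 17.5 CPM among libraries labelled Pex5-depleted. All 3 values of the second group were above the controls, with a log2 fold change of 0.85 (SE 0.38, 95% interval 0.04 to 1.66, edgeR adjusted p = 0.349). GstS1 (FBgn0010226, chromosome 2R, 17093246 to 17099501), the only Sigma gene, is known in flies for conjugating the lipid peroxidation product 4-hydroxynonenal. It stood at 19.4, 20.6 and 14.8 CPM against 15.7, 14.6 and 16.1 CPM, with a log2 fold change of -0.24 (SE 0.37) and overlapping groups.

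**Figure D4:**
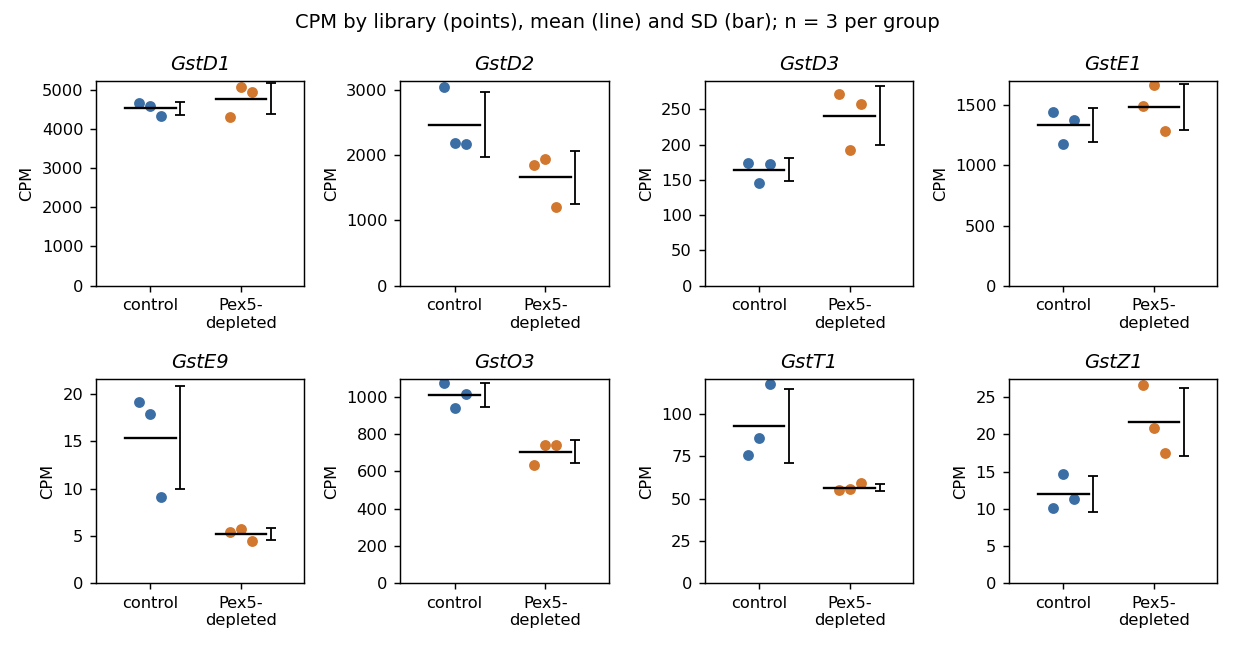
CPM of 8 Gst genes in each library (points), with the group mean (line) and SD (bar), n = 3 per group, on axes that start at 0. GstO3, GstT1, GstE9 and GstD2 are lower and GstD3 and GstZ1 higher in each library labelled Pex5-depleted than in any control, while GstD1 and GstE1 overlap. Such separation held for 22.2% of tested members and 19.2% of all tested genes.

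The 4 members that were not tested were scarce. GstD7 had 7, 1 and 6 UMIs among controls and 0, 55 and 25 among libraries labelled Pex5-depleted, so 2 libraries of the second group were above and 1 below the controls. GstZ2 had 8, 0 and 3 UMIs against 0, 6 and 7, GstD6 had 6, 1 and 1 against 1, 0 and 0, and GstE5 had 0, 11 and 0 against 0, 0 and 3. A count of 0 in 1 library allows up to 3 UMIs, which is 0.634 to 1.09 CPM on the scale used here and covers counting error only.

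Summed by class, the Delta level was 7419 ± 704 CPM among controls and 6955 ± 484 CPM among libraries labelled Pex5-depleted, and the Epsilon level was 2203 ± 218 against 2176 ± 148 CPM (SD, n = 3 each). The Omega sum was 1087 ± 77.8 against 763 ± 80.6 CPM, without overlap, and most of it was GstO3. The Theta sum was 139 ± 31.9 against 95.4 ± 8.71 CPM and the Zeta sum 13.03 ± 1.48 against 22.9 ± 3.42 CPM, also without overlap. The share of GstD1 in the family was 39.0%, 44.3% and 41.8% among controls and 44.6%, 46.9% and 51.2% in the second group, while that of GstD1 and GstD2 together was 62.7% to 65.5% in all 6 libraries.

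Genes of glutathione synthesis, redox enzymes, transferase-like proteins, conjugate export and detoxification were examined in 5 lists. The lists had 7, 11, 8, 4 and 10 tested genes, in that order. With edgeR 1 of these genes passed, where 1.65% of all tested genes did. Glo1, the glyoxalase that uses glutathione to clear methylglyoxal, stood at 636, 677 and 696 CPM among controls and at 422, 466 and 409 CPM among libraries labelled Pex5-depleted. It fell by 0.63 on the log2 scale (SE 0.15, edgeR adjusted p = 0.0479). It also passed by DESeq2 and by limma-voom, but leaving out any 1 of the 6 libraries moved its edgeR adjusted p to between 0.0953 and 0.150, above 0.05. In the list of glutathione- and thioredoxin-dependent enzymes, 1 of 11 tested genes was thus lower and 0 were higher. That list also holds GlyS, the glycogen synthase gene, which is not such an enzyme (log2 fold change 1.45, SE 1.05). With GlyS included, the list's median log2 fold change was 0.05. Trxr-1, the thioredoxin reductase that also recycles glutathione in flies, stood at 109 ± 8.27 against 166 ± 27.1 CPM (log2 fold change 0.61, SE 0.19, edgeR adjusted p = 0.162). Prx2540-1, a peroxiredoxin gene with a near-identical copy, had a log2 fold change of 1.36 (SE 0.63), and PHGPx, a glutathione peroxidase gene, stood at 249 ± 36.2 against 203 ± 37.3 CPM.

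Of the glutathione synthesis and turnover genes 7 of 14 were tested and 0 passed with edgeR or limma-voom. At an unadjusted p under 0.05, 1 was higher and 1 lower, where all tested genes gave 6.54% higher and 6.67% lower. Gclm, the modifier subunit of the enzyme that begins glutathione synthesis, stood at 182 ± 31.5 against 243 ± 31.4 CPM (log2 fold change 0.41, SE 0.19), and the catalytic subunit gene Gclc at 21.4 ± 4.77 against 19.8 ± 6.19 CPM. Pgd, an enzyme of the pentose phosphate pathway that makes NADPH, stood at 35.5 ± 13.2 against 15.8 ± 5.20 CPM (log2 fold change -1.16, SE 0.37, edgeR adjusted p = 0.160), and DESeq2 called it lower (adjusted p = 0.0486). CG2540 had a log2 fold change of -0.77 (SE 0.43), and Idh, an isocitrate dehydrogenase gene, -0.34 (SE 0.25).

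Of the 10 genes listed under other proteins with a glutathione S-transferase fold 8 were tested and 0 passed with edgeR or limma-voom. Whether each listed protein has that fold was not checked here. At an unadjusted p under 0.05, 0 were higher and 1 lower, where all tested genes gave 6.54% and 6.67%. DESeq2 gave 4 of the 8 an adjusted p, se not among them, and called 0. The gene at an unadjusted p under 0.05 was Mgstl, at 105 ± 7.96 against 70.1 ± 25.7 CPM. It encodes the membrane-bound transferase, which does not share the fold of the cytosolic enzymes. The elongation factor subunit eEF1gamma stood at 1393 ± 65.1 against 1358 ± 70.2 CPM, and Clic and AIMP1 had log2 fold changes of -0.15 and 0.42. Of 10 exporters of conjugates 4 were tested, all of them under 10 CPM, and 0 passed with edgeR or limma-voom, nor at an unadjusted p under 0.05. DESeq2 gave none of the 4 an adjusted p. MRP, Mrp4, CG4562 and CG5789 had log2 fold changes of -0.10, 0.73, -0.47 and 0.14.

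In the list of CncC, Keap1 and further detoxification genes 10 of 18 were tested and 0 passed with edgeR or limma-voom. At an unadjusted p under 0.05, 2 were higher and 1 lower, where all tested genes gave 6.54% and 6.67%. DESeq2 gave 6 of the 10 an adjusted p, Cyp6g1 and Cyp4e2 not among them, and called 0. The cnc transcript stood at 25.6 ± 5.77 against 26.8 ± 6.02 CPM and Keap1 at 2.85 ± 1.05 against 2.80 ± 1.56 CPM (SD, n = 3 each). The gene of the CncC partner maf-S stood at 52.2 ± 20.2 against 84.9 ± 32.3 CPM with overlapping groups. The P450 genes Cyp6g1 and Cyp4e2 had log2 fold changes of 2.30 (SE 0.79) and -1.82 (SE 0.60), and the autophagy receptor gene ref(2)P had one of -0.02 (SE 0.33).

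**Figure D5:**
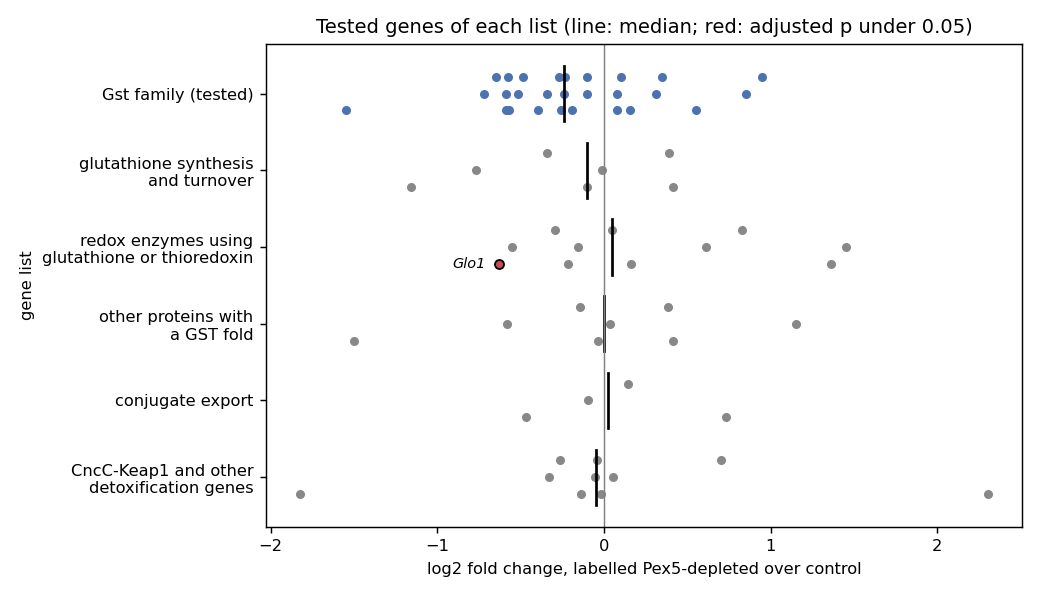
Fitted log2 fold change (x axis, libraries labelled Pex5-depleted over control) of the tested Gst genes and of the tested genes of 5 glutathione and detoxification lists, 1 point per gene, with each list's median as a line. Glo1 is the only gene past the threshold, and each list has genes on both sides of 0.

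Markers of other gut cells were counted in the same libraries. The summed level of 30 enterocyte markers was 390 to 1052 CPM among controls and 973 to 1236 CPM among libraries labelled Pex5-depleted, with overlap. Of the 21 tested 2 were higher (Amy-p and Jon25Biii) and 0 lower by edgeR, where all tested genes gave 0.833% and 0.816%. Fitted log2 fold changes were below 0 for 2 of the 21, beside 47.3% of all tested genes, and the list's median was 0.79. Of 23 enteroendocrine markers 15 were tested with edgeR, 3 were lower (Orcokinin, 7B2 and Phm), beside 0.816% of all tested genes, and 0 higher. Of the 15, 14 had a fitted log2 fold change below 0 (median -1.17), and 10 were lower at an unadjusted p under 0.05. All tested genes gave 47.3% below 0 and 6.67% lower at that unadjusted level. The sum over the enteroendocrine list was 1167 to 3263 CPM among controls and 611 to 1093 CPM in the second group. Orcokinin overlapped between the groups and was not called by DESeq2 or limma-voom, which both called 7B2 and Phm. Transcripts of the mitochondrial genome took 5.63% to 7.44% of the UMIs among controls and 8.04% to 9.31% in the second group. The part of these differences in the Gst values was not tested. In bulk counts, fewer cells of a type and less RNA per cell cannot be told apart. The brush border gene mex1 stood at 138 ± 25.0 against 123 ± 27.6 CPM and the enterocyte myosin gene Myo31DF at 16.9 ± 6.87 against 17.2 ± 1.56 CPM (SD, n = 3 each), with overlapping groups for both. Their log2 fold changes were -0.16 and 0.02, below the enterocyte list's median of 0.79.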

How the data were processed

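Per the labels' protocols, the QIAseq UPX 3′ kit, which tags 3′ ends with UMIs, was used on RNA of the sorted cells. UMI counts were deposited as 1 matrix, with a gene in each row and a well index in each column. Their run metrics list 0.717% of reads as dropped for mapping to several loci. Build dm6 and, with no role given, StringTie, HISAT2 and DESeq2 are named in the submitters' processing notes. The 6 libraries were matched to their well index by the labels; 29 further columns were not used. Spike-in rows (7 UMIs) were left out. Positions of the 31 members equalled those of Ensembl release 115. GstD8, GstD11, GstE4 and GstE14 were not analysed here. The authors' deposited table of signed fold scores and p-values entered no test.

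Groups were compared with edgeR 4.0.16 (R 4.3.3): quasi-likelihood F test on raw counts of all genes passing filterByExpr (minimum count 10), TMM factors, no covariate, Benjamini-Hochberg adjustment over 5639 genes, threshold 0.05. SE is the log2 fold change over the square root of F. CPM uses TMM-scaled totals of tested genes. Alternatives were RLE or no factors, no filter, 10 UMIs in 3 libraries, DESeq2 1.42.0, limma-voom (limma 3.58.1), leaving out each library, and a replicate block. Scripts were tested on simulated data. Between replicates of a group, chi-square divided by its degrees of freedom was 11.4 to 18.2. This is beyond counting error, so none is a mere recount of another library of its group. Such values cannot tell whether libraries shared a pool of cells, and libraries of different groups were not compared in this way. Values in every library are given for members past the threshold, the 6 most abundant, the 5 of lowest p and the most abundant of each class; a few further members, some marker genes (such as Hml, Msp300 and the yolk protein genes) and imd, which is in no list, were named after their values were seen. In each context list, genes past the threshold, the 3 of lowest p and the 2 most abundant are named. Gclc, cnc, Keap1 and GlyS were added. Members and lists were chosen with earlier results of these data known.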

Additional observations from a re-analysis of the deposited data

How the results depend on the processing

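Of 344 member values under 13 alternatives, 327 kept direction and call, 5 were newly past the threshold (GstO3 in 3, GstD2 and GstT1 in 1 each) and 12 changed sign. All sign changes came from leaving out 1 library, in 9 members, whose log2 fold change then ranged from -1.04 to 0.046 (GstE3), -0.44 to 0.048 (GstE6), -0.32 to 0.22 (GstO1), -0.58 to 0.22 (GstD10), -0.012 to 0.26 (GstE11), -0.12 to 0.24 (GstT2), -0.80 to 0.54 (GstE10), -0.44 to 0.38 (GstE2) and -0.28 to 1.32 (GstD4, 5 fits). The same held for MRP (-0.31 to 0.30), ref(2)P (-0.24 to 0.17), CG5789 (-0.60 to 0.46), CG4562 (-1.60 to 0.051) and eEF1gamma (-0.083 to 0.0032). Members called lower numbered 1 without a composition factor, 2 without a filter and 2 with DESeq2. The count over all genes was 197 (88 higher, 109 lower) without a filter, 208 (88 and 120) with DESeq2, and 17 to 80 (12 to 47 higher, 5 to 33 lower) without 1 library. The members' median was -0.32 to -0.12 without 1 library. Same-numbered replicates did not deviate together (r -0.052 to 0.013). With 3 replicates per group, such values cannot decide whether the numbers pair samples. The replicate block gave 58 called genes (23 lower), 0 of them members, and 7B2 as the only one of the 15 tested enteroendocrine markers. Under that block CG5789 was at -0.066 and Glo1 at an edgeR adjusted p of 0.107. The causes were not tested. Depth limits members under 10 CPM most.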

Other observations

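The authors' deposited table of fold changes, whose sides its header does not name, lists a signed linear fold for all 31 members, 28 of them negative (37.7% of all its folds are negative), with a median of -4.55 and a range from -8.82 (GstE11) to 1.93 (GstD10). In the authors' deposited table GstD1 has a fold of -4.54, GstD2 -7.01 and GstO3 -6.08. Of its 13635 genes with a fold, 85.9% have a false discovery rate under 0.05 in the authors' deposited table. The counts of the 6 libraries give GstD1 levels within 1.06-fold between the groups, so the table and the counts are not set side by side as one comparison.

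Variation between replicates was uneven among members of similar abundance. In the controls the coefficient of variation was 3.82% for GstD1 and 20.2% for GstD2, 6.50% for GstO3 and 10.7% for GstE1, and 61.8% for GstE3 against 15.3% for GstE13. Control replicate 1 was the highest control for GstD2, GstD5, GstE3, GstE6 and GstE7, and control replicate 3 for GstT1, GstT3 and GstO2. These members were picked after their values were seen, and no test was made.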
